A study of Mus musculus with 5 samples.

Results

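Major urinary proteins (Mups) are small secreted lipocalins, barrel-shaped carriers of small fatty molecules. In mice the liver makes them and releases them into blood, the kidney passes them into urine, and there they bind and slowly release volatile pheromones. Mup20, also called darcin, is itself a pheromone of male mice, and liver Mup RNA is known to depend on growth hormone and to be higher in males. The genes form a tight array of near copies. The 7 genes described here, Mup3, Mup9, Mup11, Mup16, Mup17, Mup18 and Mup20, were chosen by name, with their values in these libraries known. They are 7 of 22 Mup genes and of 18307 genes in the liver table on the ApoE background, and all 7 were detected in each liver library.

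The study made 5 droplet libraries of single mouse cells, of which 3 hold liver and 2 hold aorta, each group being 1 library. The liver libraries are labelled DKO with ApoE, WT with ApoE, and WT with no ApoE. The series title names liver epsins, endocytic adaptors, and their part in dyslipidemia. DKO is not spelt out in the labels, which also give no promoter, Cre line, strain, sex or age, and their protocol mentions 3 mice without tying them to libraries. ApoE is given only as a word in the title of a sample, so whether it names a deletion is not stated.

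The hepatocyte class was formed by the authors' clusters 0 to 8, 13 and 16 of the table on the ApoE background, and by clusters 3, 4, 8 and 12 of the other table. It held 3253 cells in the library labelled DKO and 4021 in the WT library with ApoE in its label, called WT ApoE below. In the WT library without ApoE in its label it held 261 of 616 cells, all of which the authors call hepatocytes. Left out of the class there were cluster 0 (244 cells), led by Spp1 and Tmsb4x, and cluster 2 (111 cells), led by globin genes of red blood cells. Levels are CPM, UMIs (molecules tagged near their 3′ end) of a gene per 1000000 UMIs, summed over the cells of a class, and a ratio divides the CPM of the first library named by that of the other. Brackets hold 95% intervals that cover counting error only. Since each group is 1 library, nothing was tested and no difference here has a replicate check.

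Some facts of the libraries bear on the values below. The 3 liver libraries held 10999072, 9497896 and 1883798 UMIs, in the order DKO, WT ApoE and WT. Epn1 and Epn2, which encode epsins, were not lower in hepatocytes of the library labelled DKO, at 71.2 and 8.70 CPM against 58.9 and 7.62 CPM in WT ApoE. A tag outside a deleted part checks nothing, and in what follows DKO names the library with that label. Apoe stood at 32.6 and 36.2 CPM on the ApoE background against 68.9 in WT. Xist, the RNA that silences an X chromosome in female cells, stood at 673, 644 and 563 CPM in DKO, WT ApoE and WT. Cluster 16, with 40 DKO and 6 WT ApoE cells, is led by pancreatic acinar genes and none of its leading genes is a hepatocyte marker. Leaving it out left the ratio of the summed Mups at 0.592. Libraries shared from 0 to 7 cell barcodes, 4 of them between the DKO and WT ApoE liver libraries.

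The members lie within the same stretch of chromosome 4 on the minus strand (GRCm38, the build mm10), from Mup9 at chr4:60418046-60421952 through Mup11 at chr4:60658466-60662411, Mup16 at chr4:61515592-61519531, Mup17 at chr4:61591929-61595871, Mup18 at chr4:61670177-61674136 and Mup20 at chr4:62050234-62054158 to Mup3 at chr4:62083476-62087342. The sequences below are shown because they bear on how far a read can tell the members apart. The last 60 coding bases, taken from GENCODE transcripts and ending in the stop codon, are the same in Mup9, Mup11, Mup16, Mup17 and Mup18. Capitals mark bases of Mup3 and Mup20 that differ from Mup17, 4 in each.

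Mup17: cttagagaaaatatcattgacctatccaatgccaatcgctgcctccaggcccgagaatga

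Mup3: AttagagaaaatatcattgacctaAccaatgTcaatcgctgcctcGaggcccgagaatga

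Mup20: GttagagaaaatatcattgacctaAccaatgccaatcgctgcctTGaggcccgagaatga

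Over the whole coding sequence, Mup9, Mup11, Mup16, Mup17 and Mup18 were 98.5 to 99.8% identical to one another. Mup20 was 90.7 to 91.4% identical to those 5, and Mup3 was 82.7 to 83.6% identical to them. Since UMIs tag molecules near their 3′ end, that end of the spliced transcript was compared as well. Reads in introns were not part of this comparison. In the last 400 bases of the transcript, all 90-base windows of Mup3 were found in no other gene. That share was 87.8% for Mup20, 70.1% for Mup17, 41.2% for Mup11 and 33.4% for Mup9, and 20.9% for both Mup16 and Mup18. With windows of 50 bases the shares were 84.6% for Mup3, 71.5% for Mup20, 40.5% for Mup17, 27.6% for Mup11, 18.2% for Mup9, 14.2% for Mup18 and 9.12% for Mup16. The sources used here give no read length, so neither window is known to match the reads. At both lengths Mup3 and Mup20 were the easiest to tell apart, and a count for Mup9, Mup11, Mup16 or Mup18 may hold molecules of a neighbour. The sources used here do not say how the authors' pipeline treated reads that match several copies. The transcripts used were 864 to 938 bases long, so levels of different members, molecule counts without a length correction, compare genes of nearly one length. They were not corrected for the unequal shares of unique windows above. The order of the members and their make-up may therefore partly follow how well reads could be assigned, which was not tested.

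The promoters of Mup9, Mup11 and Mup17 are near copies as well, and those of Mup18 and Mup3 differ more. RefSeq's promoter table (GRCm38.p6) holds entries for 5 of the 7 members. All 5 carry the letters TATATAAG, in capitals below with the 110 bases before them, and 1.01% of 32851 promoter entries of the same 300 bases hold those letters on either strand. The letters end 23, 20, 17 and 3 bases before the start site of the entry in Mup9, Mup18, Mup17 and Mup3. In Mup11 they run 6 bases past it, so the entries are not placed alike. The stretch before the box differs most in its run of A and C.

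Mup17, chr4:61595850-61595967: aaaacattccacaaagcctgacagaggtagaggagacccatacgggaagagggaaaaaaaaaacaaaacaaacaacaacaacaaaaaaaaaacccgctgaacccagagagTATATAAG

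Mup11, chr4:60662390-60662507: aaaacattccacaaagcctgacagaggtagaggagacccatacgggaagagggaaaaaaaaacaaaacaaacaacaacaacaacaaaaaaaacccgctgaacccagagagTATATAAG

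Mup9, chr4:60421976-60422093: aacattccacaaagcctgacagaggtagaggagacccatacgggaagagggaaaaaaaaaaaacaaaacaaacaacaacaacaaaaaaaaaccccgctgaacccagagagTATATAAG

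Mup18, chr4:61674115-61674232: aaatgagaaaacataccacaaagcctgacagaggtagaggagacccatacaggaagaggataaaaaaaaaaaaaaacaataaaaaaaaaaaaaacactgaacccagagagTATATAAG

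Mup3, chr4:62087321-62087438: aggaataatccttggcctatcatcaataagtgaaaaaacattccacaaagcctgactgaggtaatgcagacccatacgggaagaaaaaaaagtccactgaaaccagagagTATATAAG

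Mup11 and Mup17 were 98.3% identical over this window, Mup9 was 95.8% identical to Mup17, and Mup18 was 81.6% identical to Mup17. Mup3 lacks the long run of A and C, so its window of the same length reaches farther upstream. Aligned end to end, it was 52.1 to 56.7% identical to the others. Stretches that Mup3 shares with them stand at other places in its window, so these values understate how alike the promoters are. The letters TTCNNNGAA, a form bound by STAT5 downstream of growth hormone, were in 0 of 5 member entries and in 8.30% of all entries. TATAAA was in 0 of 5 and in 13.6%, and CCAAT was in 3 of 5 (Mup11, Mup17 and Mup18) and in 37.4%, each searched on both strands. A match is only a match of letters in this window.

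The summed members took 5486 CPM in DKO hepatocytes, 9271 CPM in WT ApoE and 9646 CPM in WT. On the ApoE background the ratio of DKO over WT ApoE was 0.592 (0.585 to 0.598). Alb, the albumin gene and another main secreted product of hepatocytes, stood at 0.852 (0.848 to 0.856), so per 1000 Alb UMIs the summed members counted 145 in DKO, 209 in WT ApoE and 279 in WT. The sum does not depend on which of the 7 members a molecule was given to, though molecules given to other Mup genes are outside it. In cells thinned to 1000 UMIs the ratio was 0.539. The members were also counted in the other liver cell types given below, where their sum was lower in DKO by a larger fold. How much of the class levels, of the sum or of each member, is RNA from outside the cell was not tested. Other secreted products were also lower, Ttr at 0.651 (0.645 to 0.658) and Apoa2 at 0.724 (0.719 to 0.729), while Ahsg was at 1.06 (1.05 to 1.08). Gm42418, a transcript that overlaps ribosomal RNA genes, stood at 39506 CPM in DKO and 23354 CPM in WT ApoE, and Hbb-bs, a globin of red blood cells, at 70.3 and 5.12 CPM. The part of Gm42418 in the result was not tested beyond the change of denominator, which gave 0.625 without mitochondrial genes, Gm42418 and AY036118. The part of Hbb-bs was not tested.

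**Figure D1:**
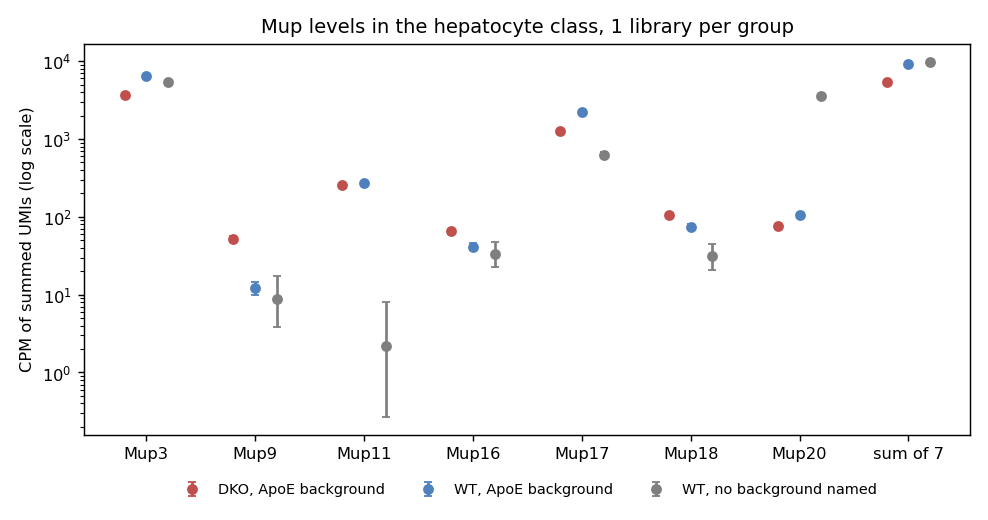
CPM of each member and of their sum in the hepatocyte class of the 3 liver libraries, on a log scale, with exact Poisson intervals at 95%. Mup20 in WT, at 3603 CPM, and Mup11 in WT, at 2.22 CPM, lie farthest from the other libraries.

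Mup3 and Mup17 made up most of the molecules on the ApoE background, and both were lower in DKO. Mup3, which is expressed in liver and is the most diverged member here, stood at 3663 CPM in DKO and 6520 CPM in WT ApoE, a ratio of 0.562 (0.554 to 0.569). Mup17, one of the near-identical copies, stood at 1269 and 2245 CPM, a ratio of 0.565 (0.553 to 0.578). Their levels in WT were 5345 and 623 CPM, so Mup3 in DKO lay below both other libraries, while Mup17 in DKO lay between them.

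Mup9, Mup16 and Mup18, near-identical copies at lower levels, stood higher in DKO. Mup9 stood at 52.5 CPM in DKO (483 UMIs) and 12.2 CPM in WT ApoE (107 UMIs), a ratio of 4.31 (3.49 to 5.37), with 8.88 CPM from 8 UMIs in WT. Mup16 stood at 65.3 and 41.4 CPM, a ratio of 1.58 (1.38 to 1.80), and at 33.3 CPM in WT. Mup18 stood at 106 and 75.0 CPM, a ratio of 1.42 (1.28 to 1.57), and at 31.1 CPM in WT. For these 3 the DKO library was the highest of the 3 and the WT library the lowest, though the intervals of WT ApoE and WT overlap for Mup9 and Mup16.

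Mup11 and Mup20 stood closer on the ApoE background. Mup11 stood at 254 CPM in DKO and 271 CPM in WT ApoE, a ratio of 0.936 (0.883 to 0.991). Mup20 stood at 76.1 and 107 CPM, a ratio of 0.714 (0.646 to 0.788). Both ratios pass 1 when clusters 5, 7 and 8 are taken alone, at 1.23 (1.13 to 1.35) for Mup11 and 1.04 (0.893 to 1.21) for Mup20.

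Counted at 1.5-fold, 2 members were higher in DKO (Mup9 and Mup16), 2 were lower (Mup3 and Mup17) and 3 lay between. Among the 8294 genes with at least 100 UMIs, 2.24% were 1.5-fold higher and 2.71% were 1.5-fold lower. The members were chosen with these values known, so nothing is read from their count against that background. The median log2 ratio was -0.10 over the 7 members, and that of all 8294 genes was 0.00.

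The order of levels was the same at the top in both ApoE libraries, Mup3 before Mup17 before Mup11. Below these, DKO had Mup18, Mup20, Mup16 and Mup9 in that order, and WT ApoE had Mup20, Mup18, Mup16 and Mup9. In DKO the interval of Mup16 (60.2 to 70.8 CPM) met that of Mup20 (70.6 to 81.9 CPM) only at its edge. In WT the order was Mup3, Mup20, Mup17, then Mup16 and Mup18 with intervals that overlap (22.5 to 47.6 and 20.7 to 44.9 CPM), then Mup9 and Mup11, whose intervals overlap too.

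The other Mup genes of the table were sparse. The 15 of them held 983 UMIs in DKO hepatocytes and 794 in WT ApoE, or 107 and 90.3 CPM, a ratio of 1.18 (1.08 to 1.30). Mup12 (361 against 177 UMIs, ratio 1.95, 1.62 to 2.35) and Mup2 (121 against 61, ratio 1.90, 1.38 to 2.62) stood higher in DKO. Mup5 stood lower (9 against 36, ratio 0.239, 0.101 to 0.505), and Mup7 was at 1.04 (0.810 to 1.33). Summing all 22 genes gave a ratio of 0.597.

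The members differ in where along the liver lobule they are found. Hepatocytes near the central vein (pericentral) and near the portal tract (periportal) run different pathways, and the authors' clusters 5 and 7 are led by genes of each kind. Cluster 5 is led by Glul, Slc1a2 and Oat, with Mup17 among its 10 leading genes, and cluster 7 by Cyp2f2, Etnppl and Hsd17b6. Since clusters were drawn with all genes, cells were also ordered by markers that are no Mup gene. The share of pericentral UMIs (Glul, Oat, Cyp1a2, Cyp2e1, Slc1a2, Lhpp) among these and periportal UMIs (Cyp2f2, Hal, Sds, Gls2, Hsd17b13, Pck1) was cut into 5 equal ranges. Cells with under 10 marker UMIs were left out, so that 2209 of 3253 DKO cells, 3158 of 4021 WT ApoE cells and 320 of all 616 WT cells were placed. Within 0.02 of a boundary lay 367, 674 and 67 of them. From the most periportal range on, cells held medians of 5090, 1743, 1645, 1609 and 2141.5 UMIs in WT ApoE. In DKO the medians were 4731, 2634.5, 2410.5, 3224 and 3837 UMIs, and in WT they were 3104 to 3794. The part of depth in the values by range was not tested. These ranges are cuts through a score, not cell types, and this ordering was added after the data were seen.

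Mup17 stood highest in the most pericentral range of each library. In WT ApoE it stood at 397 CPM in the most periportal range and at 1602, 2190, 2726 and 3341 CPM in the next 4. In DKO it stood at 119, 404, 1026, 2039 and 3254 CPM. The libraries thus met at the pericentral end and stood farthest apart, by ratio, in the 2 most periportal ranges. In WT Mup17 stood at 341, 587, 770, 509 and 1085 CPM, so it was lower in the fourth range than in the third.

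Mup11 and Mup18 stood lowest in the most periportal range on the ApoE background. Mup11 stood at 58.6 CPM in the first range and 355 CPM in the last in WT ApoE, and at 38.1 and 501 CPM in DKO. It was lower in DKO in the second range (97.6 against 206 CPM) and higher in the last, so its ratio near 1 over the class joins both directions. Mup18 stood at 18.8, 59.4, 82.0, 79.5 and 72.0 CPM in WT ApoE, with intervals that overlap from the second range to the last. In DKO it stood at 32.9 CPM in the first range and 197 CPM in the last. Mup16 stood at 25.1 and 35.5 CPM in WT ApoE and at 43.3 and 80.6 CPM in DKO, the smallest ratio between these ends among the 7 members in each of these libraries.

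Mup3 and Mup20 were lowest in the most pericentral range on the ApoE background. Mup3 stood at 7207 CPM in the most periportal range of WT ApoE and 4137 CPM in the most pericentral, and at 5408 and 2216 CPM in DKO. Mup20 stood at 106, 103, 125, 98.1 and 62.6 CPM in WT ApoE, with intervals that overlap from the first range to the fourth. In DKO it stood at 117 CPM in the first range and 44.7 CPM in the last. In WT both peaked between the ends, Mup3 at 7996 CPM in the middle range and Mup20 at 5700 CPM in the second. In DKO Mup9 was highest in the most periportal range, at 94.1 CPM from 237 UMIs. In the other 4 it stood at 25.2 to 41.5 CPM. In WT ApoE it was lowest in the most periportal range, at 3.14 CPM from 3 UMIs. Just 36 DKO hepatocytes, those with at least 3 Mup9 UMIs, together held 218 Mup9 UMIs. The ranges were not recomputed without these cells.

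**Figure D2:**
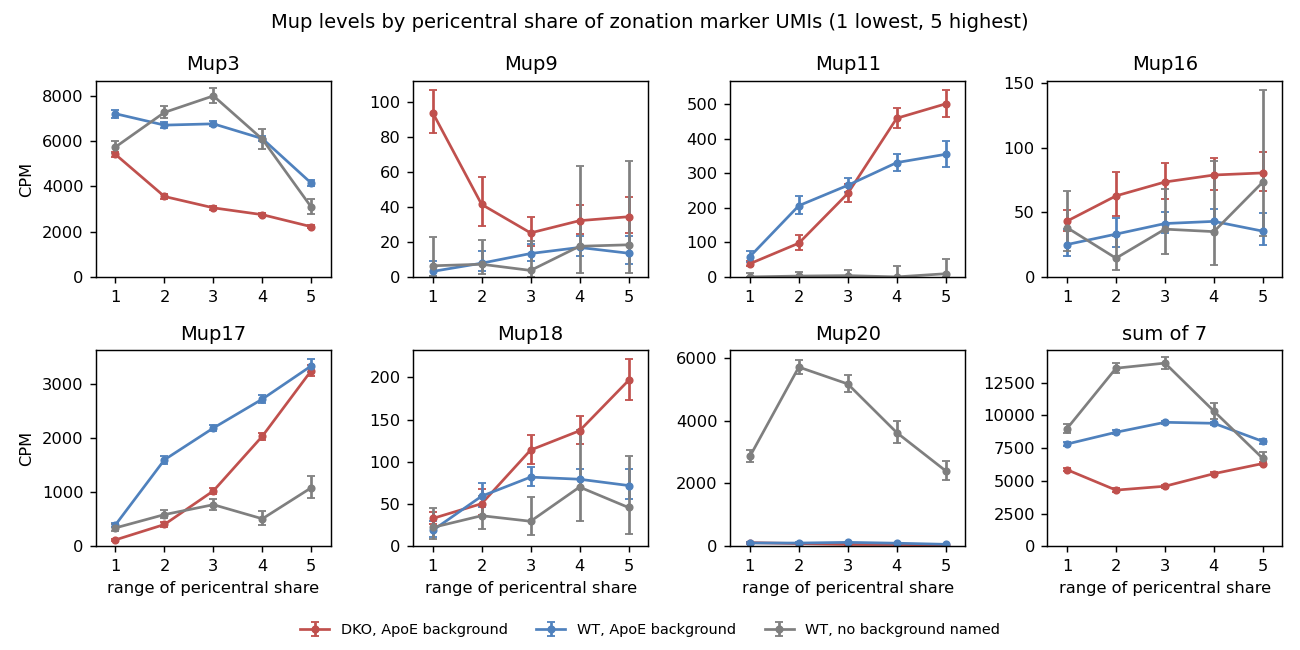
CPM of each member and their sum in 5 ranges of the pericentral share of marker UMIs, from 1 (most periportal) to 5 (most pericentral), with exact Poisson intervals at 95% and 1 line per liver library. Mup17 climbs to 3254 CPM in DKO and 3341 CPM in WT ApoE at the pericentral end, while Mup3 is lowest there. Mup9 in DKO peaks at the periportal end, and 36 cells held 45.1% of the Mup9 UMIs of DKO hepatocytes.

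Within the authors' clusters the same split showed. In pericentral cluster 5 (406 DKO and 303 WT ApoE cells), Mup17 stood at 3067 and 3159 CPM, a ratio of 0.971 (0.932 to 1.01). There Mup18 stood at 175 and 57.3 CPM (3.05, 2.36 to 3.98), Mup16 at 88.5 and 32.1 CPM (2.76, 1.95 to 3.98) and Mup11 at 559 and 357 CPM (1.56, 1.40 to 1.75). Mup3 stood at 2355 and 3610 CPM (0.652, 0.625 to 0.680). Of the 6 members with at least 100 UMIs in this cluster, 3 were 1.5-fold higher and 1 was lower, beside 4.42% and 2.54% of 3735 genes, which the choice of members also used.

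In periportal cluster 7 (462 and 214 cells), Mup9 stood at 96.3 CPM from 231 UMIs in DKO. In WT ApoE it stood at 4.47 CPM from 5 UMIs, a ratio of 21.6 (9.10 to 67.0). Of the 231 DKO UMIs, 190 lay in 30 cells, and the ratio without these cells was not computed. Mup17 stood at 87.2 and 328 CPM (0.266, 0.223 to 0.316), Mup11 at 38.0 and 59.0 CPM (0.643, 0.463 to 0.897) and Mup16 at 38.0 and 17.9 CPM (2.12, 1.30 to 3.64). Mup3 at 5459 and 6697 CPM (0.815, 0.792 to 0.839) and Mup20 at 113 and 95.6 CPM (1.18, 0.941 to 1.49) stood closest to 1. Of 6 members with at least 100 UMIs here, 2 were 1.5-fold higher and 2 lower, beside 3.12% and 2.68% of 4036 genes.

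Cluster 8, led by long genes such as Esrrg, resembled cluster 5. Mup16 was at 2.62 (1.76 to 3.996), Mup18 at 2.13 (1.59 to 2.91), Mup11 at 1.39 (1.19 to 1.62), Mup17 at 0.859 (0.807 to 0.914) and Mup3 at 0.619 (0.594 to 0.644). In it 2 of 6 members were 1.5-fold higher and 1 was lower, beside 1.84% and 2.59% of 4086 genes. Clusters 0 to 4 and 6, whose leading genes include no zonation marker, held most cells, with cluster medians of 938 to 3817 UMIs per cell in DKO and 1204 to 2027 in WT ApoE. In them the summed members were at ratios of 0.449 to 0.568, against 0.868, 0.812 and 0.731 in clusters 5, 7 and 8.

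**Figure D3:**
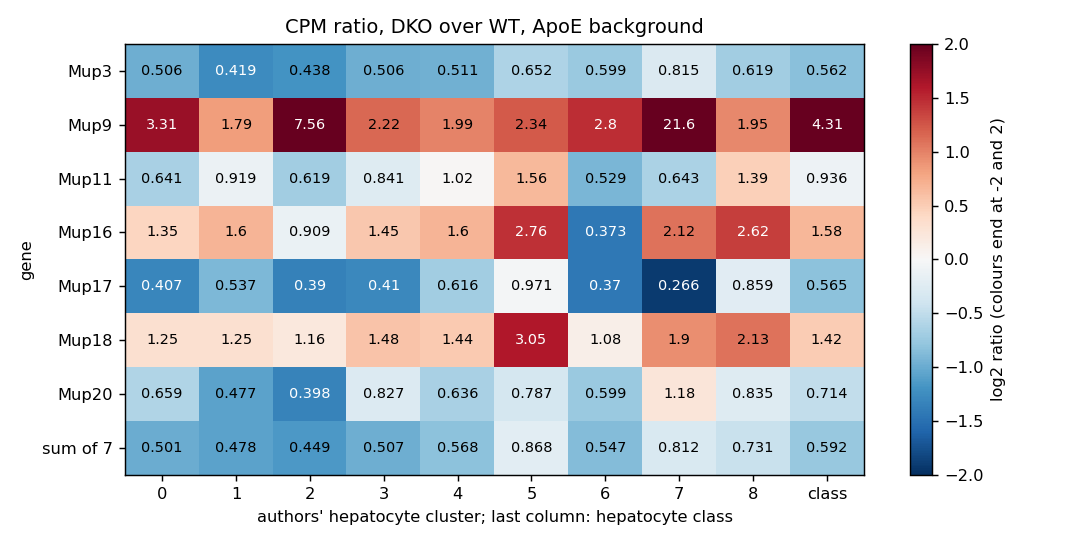
Ratio of CPM, DKO over WT ApoE, for each member and their sum in hepatocyte clusters 0 to 8 and in the hepatocyte class. Cells print the ratio and colours give its log2; Mup3 lies below 1 in every column, Mup9 lies above 1 in every column, and Mup17 lies between 0.266 in cluster 7 and 0.971 in cluster 5.

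Across the 19 units of 1 hepatocyte cluster in 1 ApoE library with at least 50 cells, some members had like patterns. Pearson's r of log2(CPM + 10) was 0.93 between Mup3 and Mup20 and 0.93 between Mup11 and Mup17. It was 0.75 between Mup16 and Mup18, 0.71 between Mup11 and Mup18, 0.63 between Mup17 and Mup18 and 0.56 between Mup11 and Mup16, and the member most like Mup9 was Mup18, at 0.18. The units share libraries and, through near-identical sequence, some molecules, so these are descriptions. Genes outside the family had patterns as close or closer. Their highest r was 0.95 with Mup3 (Fgg), 0.93 with Mup20 (Serpinc1), 0.96 with Mup11 (Cyp2c69) and 0.97 with Mup17 (Lect2). Over single cells inside clusters 5, 7 and 8 of each ApoE library, r was -0.07 to 0.17 between Mup3 and Mup20. Between Mup11 and Mup17 it was 0.07 to 0.54. Among 2510 genes with at least 1000 UMIs, the pattern of the summed members was most like Rarres2 (chemerin, a secreted adipokine, r of 0.96), Dad1 (0.93), Ifitm3 (0.93), Tmem59 (0.93) and Ifitm2 (0.93). It was least like Nadk (-0.87), Rock1 (-0.85) and Dnajc12 (-0.84).

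The Mup9 molecules of the DKO library sat in few cells. Of 3253 hepatocytes, 217 held 1 Mup9 UMI, 24 held 2 and 36 held 3 or more, up to 16 UMIs in a cell. In WT ApoE 107 of 4021 cells held 1 UMI and no cell held more. The 36 cells carried 45.1% of the Mup9 UMIs of DKO hepatocytes, and without them the ratio over the class was 2.41. Of these cells 30 were in cluster 7, and 8 of the 36 lay at the boundary of 3.

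**Figure D4:**
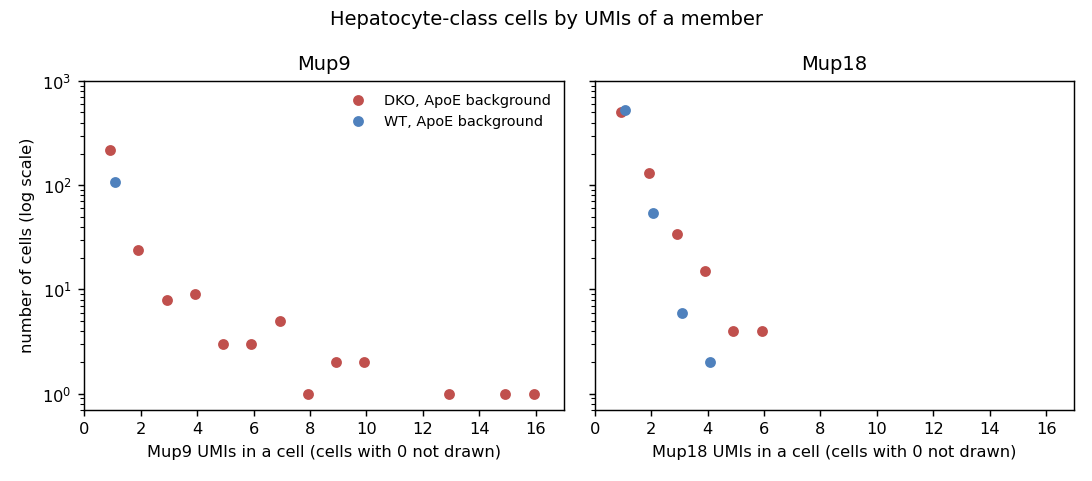
Number of hepatocyte-class cells (log scale) by the UMIs of Mup9 or Mup18 in a cell, in DKO and WT ApoE; cells with 0 are not drawn. Mup9 reaches 16 UMIs in a DKO cell and 1 in a WT ApoE cell, while Mup18 reaches 6 in DKO and 4 in WT ApoE.

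These 30 cells of cluster 7 were of usual depth, with a median of 5464 UMIs, against 5282 in the 400 DKO cells of the cluster with no Mup9 UMI. Mup3 was lower in them, at 2246 CPM against 5791 CPM, and Mup20 was at 12.3 CPM against 120 CPM. Mup18, which shares most of its 3′ end with other copies, stood higher, at 129 CPM against 15.0 CPM. The ratios of Mup17 (0.820, 0.402 to 1.504), Mup11 (0.323, 0.0384 to 1.20) and Mup16 (0.490, 0.0989 to 1.49) had intervals that include 1. Alb differed little, at 61952 against 58849 CPM.

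Outside the family, the genes with the highest fold in those 30 cells (after adding 50 CPM to both sides) included acute-phase and sulfotransferase genes. They were chosen after their values were seen. Saa1, a serum amyloid made in the acute phase, stood at 954 against 70.5 CPM, with a median of 4 UMIs a cell against 0. Saa2 stood at 708 against 43.0 CPM, Sult3a1 at 455 against 28.0 CPM, Sult2a1 at 412 against 34.8 CPM, Rcan2 at 160 against 3.38 CPM and Lcn2 at 308 against 66.1 CPM. Apoa4, an apolipoprotein, stood at 1483 against 299 CPM. Lower were A1bg (61.5 against 393 CPM) and Serpina1e (30.8 against 251 CPM). The 30 cells come from 1 library.

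Mup RNA was also counted in liver cells that are not hepatocytes. In T cells the summed members stood at 2009 CPM in DKO and 5336 CPM in WT ApoE, in B cells at 2045 and 4258 CPM, in Kupffer cells (the macrophages of the liver) at 2883 and 8389 CPM, and in endothelial cells at 3061 and 7727 CPM. Alb lay with them: the members counted 166 per 1000 Alb UMIs in DKO T cells and 212 in WT ApoE T cells, near the 145 and 209 of the hepatocyte class. The make-up was close as well. Mup3 was 69.3% of the members' UMIs in DKO T cells and 66.8% in DKO hepatocytes, and 69.7% and 70.3% in WT ApoE. Mup17 was 20.1% and 23.1% in DKO, and 25.7% and 24.2% in WT ApoE.

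**Figure D5:**
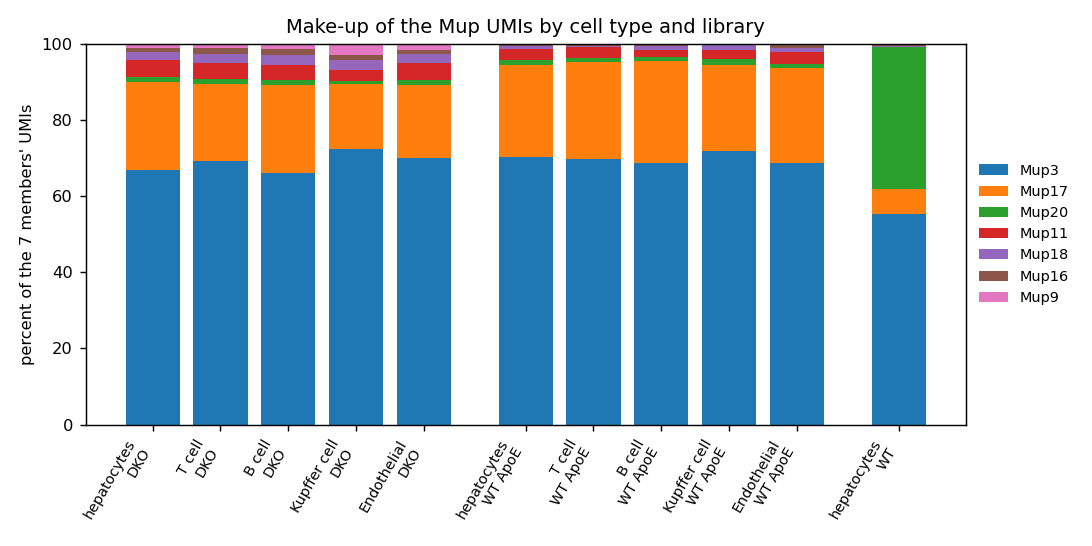
Each member as a percent of the UMIs of all 7 members, by cell type and liver library. Bars of other cell types resemble those of the hepatocytes of the same library, and Mup20 holds 37.4% in WT hepatocytes but 1.15% in WT ApoE.

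These levels in other cells bear on the lower values above. In cells thinned to 1000 UMIs, Mup17 was seen in 75.3% of 85 T cells but in 30.8% of 214 cells of cluster 7 in WT ApoE, at median depths of 2686 and 5281 UMIs before thinning. In DKO it was seen in 29.6% of 362 T cells and 8.73% of 458 cells of cluster 7, at 1916 and 5316 UMIs. Unthinned, the shares were 97.7% and 69.2% in WT ApoE and 51.3% and 33.1% in DKO. Mup17 in cluster 7 lay below the T-cell share in both libraries and is not read here as expression by those cells, and its ratio there (0.266) lies near that in T cells (0.295, 0.251 to 0.346). Mup11 in cluster 7 also lay below T cells, at 3.49% against 8.01% in DKO and 7.48% against 15.3% in WT ApoE. Mup18 did so in DKO, at 2.40% against 5.52%, while in WT ApoE it was seen in 4 of 214 cells and 2 of 85 T cells, too few to order.

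Mup9 was above the T-cell level in cluster 7 of DKO, with 6.11% of 458 thinned cells against 3.04% of 362 T cells (13.4% and 3.89% unthinned). In thinned cells its share there was not above that of DKO Kupffer cells, 7.94% of 63 cells, a small number to order. Unthinned, the shares were 13.4% in cluster 7 and 11.1% of 162 Kupffer cells, at median depths of 5308 and 901.5 UMIs. Shares do not show that cells of cluster 7 held up to 16 Mup9 UMIs. In clusters 5 and 8 of DKO the Mup9 shares of 2.26% and 1.53% did not exceed the T cells. In WT ApoE thinned T cells held it in 0 of 85 cells, which by the floor of 3 counts allows a share of up to 3.53%. DKO Kupffer cells held 18 Mup9 UMIs in 18 of 162 cells, 1 UMI in each, or 86.1 CPM, and the 79 WT ApoE Kupffer cells held 0. Mup16 and Mup18 in cluster 5 of DKO exceeded T cells, at 7.29% against 2.76% and 15.1% against 5.52%. Here they were set against T cells of DKO alone, not against Kupffer cells or other cell types.

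The aorta libraries served as a tissue not known for Mup RNA. Their table lists 4 Mup genes, none of them a member, with 3 UMIs of 6228458 in the library labelled DKO and 2 of 6383082 in that labelled WT.

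Within the 7 members, the liver library without ApoE in its label differed from WT ApoE more in their make-up than in their sum. In the hepatocyte class the sums were close, with 9271 CPM in WT ApoE and 9646 CPM in WT, a ratio of WT ApoE over WT of 0.961 (0.940 to 0.983). The ratio turned to 1.10 when each cell was weighted alike and to 1.06 in thinned cells. Over all cells the authors call hepatocytes it was 0.796 (0.784 to 0.808). Mup20 stood at 107 CPM in WT ApoE and 3603 CPM in WT, a ratio of 0.0296 (0.0275 to 0.0318), and was 37.4% of the members' UMIs in WT. It was seen in 93.1% of WT hepatocytes and 19.5% of WT ApoE hepatocytes (78.4% and 11.6% of thinned cells). Mup11 was nearly missing from WT, with 2 UMIs against 2384 in WT ApoE, a ratio of 122 (33.8 to 1009).

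Of the other members, Mup17 was at a ratio of 3.60 (3.31 to 3.93), Mup18 at 2.41 (1.65 to 3.66) and Mup3 at 1.22 (1.18 to 1.26). Over all cells the authors call hepatocytes Mup3 was at 0.991 (0.972 to 1.01). Mup9, at 1.37 (0.671 to 3.26), and Mup16, at 1.24 (0.856 to 1.87), had intervals that include 1. Counted at 1.5-fold, 3 members were higher in WT ApoE and 1 was lower. Among 6880 genes with at least 100 UMIs, 14.8% were higher and 16.8% lower, so large ratios were common in this comparison. Both comparisons share the WT ApoE library. Relative to WT, DKO had Mup20 at 0.0211 and Mup11 at 114, so these differences separated both ApoE libraries from the WT library. The WT library also had a different Lcn2 level (49.0 CPM in DKO, 48.9 in WT ApoE, 621 in WT), and Lcn2 is an acute-phase lipocalin. Whether strain, batch or the ApoE background goes with these values cannot be told apart with 1 library.

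Lists of related genes were counted in the hepatocyte class, with the list members chosen with earlier results known. Of 17 genes of the growth hormone pathway and regulators of Mup genes, 14 had at least 100 UMIs in DKO and WT ApoE together, and 0 were 1.5-fold higher or lower in DKO, with a median log2 ratio of 0.00, beside 2.24% and 2.71% of all genes. Igf1, the main growth hormone target of the liver, was at 0.941 (0.918 to 0.965), Ghr, the receptor, at 0.962 (0.935 to 0.990), Thrb, a thyroid hormone receptor, at 0.916 (0.865 to 0.970) and Hnf4a, a hepatocyte transcription factor, at 1.26 (1.19 to 1.34). Between WT ApoE and WT, 1 of 12 was higher (Hnf4a, 1.58, 1.32 to 1.90) and 2 were lower, shares no larger than or near the 14.8% and 16.8% of all genes. The lower ones, named after their values were seen, were Socs2 and Cish, both feedback inhibitors induced by growth hormone, at 0.448 (0.286 to 0.731) and 0.262 (0.163 to 0.435).

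Of 14 genes known as higher in male mouse liver, 5 had enough UMIs, and 2 of them (Gstp1 and Cyp2d9) were 1.5-fold lower in DKO, with a median log2 ratio of -0.45, beside 2.71% lower among all genes. Gstp1 was at 0.447 (0.386 to 0.517) and Cyp2d9 at 0.555 (0.389 to 0.784), and Cyp7b1, at 0.733 (0.660 to 0.814), and Slco1a1, at 0.796 (0.714 to 0.886), lay between. Between WT ApoE and WT, 2 of 3 were higher and 0 lower, with a median log2 ratio of 1.27, beside 14.8% and 16.8% of all genes. Slco1a1, an organic anion transporter, had 748 UMIs in WT ApoE and 0 in WT. Of 22 genes known as higher in female mouse liver, 17 had enough UMIs, and 0 were higher and 1 lower in DKO, with a median of -0.07, beside 2.24% and 2.71% of all genes. The lower one, named after its values were seen, was Cyp3a16 at 0.516 (0.450 to 0.592), and Cyp3a44, at 0.670 (0.630 to 0.712), lay just inside the fold. Between WT ApoE and WT, 9 of 16 were higher and 1 lower, with a median log2 ratio of 1.68 against -0.02 over all 6880 genes, of which 14.8% were higher and 16.8% lower. Among them Tox was at 4.10 (3.40 to 4.98), Sult3a1 at 17.5 (10.6 to 31.3) and Cyp3a44 at 14.4 (9.11 to 24.4).

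Of 12 other lipocalins, 8 had enough UMIs, and 3 (C8g, Apom and Orm2) were 1.5-fold lower and 0 higher in DKO, with a median log2 ratio of -0.48, beside 2.71% lower and 2.24% higher among all genes. Rbp4, the carrier of retinol, was at 0.770 (0.760 to 0.780), Orm1 at 0.684 (0.665 to 0.703), C8g, part of a complement complex, at 0.636 (0.617 to 0.656) and Ambp at 0.748 (0.725 to 0.772). Lcn2, at 1.002 (0.876 to 1.15), was the only one of the 8 with a ratio over 1. Between WT ApoE and WT, 0 of 8 were higher and 2 lower, Lcn2 at 0.0788 (0.0693 to 0.0895) and Orm2 at 0.254 (0.201 to 0.324), with a median log2 ratio of -0.07, beside 14.8% higher and 16.8% lower among all genes. Apom and Orm2 were named after their values were seen.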

How the data were processed

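For 3 data sets the authors deposited raw counts, UMIs of a gene in a cell, with metadata on the cells. Cell Ranger 7.1.0 and the build mm10 were used, per the submitters' processing notes, and the sources used here do not say how cells were filtered. The authors' library names, clusters and cell types were used, and 28 other metadata columns of the liver table were not.

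Counts of all cells in a class were added up and divided by the class total (CPM), with exact Poisson intervals. Ratios have exact conditional binomial intervals and shares exact Clopper-Pearson intervals, all at 95% and for counting error only, with a floor of 3 counts (Python 3.11.15, numpy 2.4.6, scipy 1.17.1). CPM sums to a fixed total, so abundant genes lower all others. Hepatocyte libraries held 9199909, 8789001 and 900652 UMIs. The script for ratios and their intervals was tested on simulated data with known ratios.

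The members and gene lists were chosen with earlier results of these data known. The text describes every member, up to 4 genes of a list with the most UMIs, and the genes most like the summed members over units of 1 cluster and library, among genes with at least 1000 UMIs. Transcripts were those with the reading frame closest to the family's usual length. Doublets were not called again. Alternatives covered scaling, denominator, weighting of cells, depth, class and members summed. The values of 1 gene of a list are not reported here.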

Additional observations from a re-analysis of the deposited data

Results flagged for a closer look

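Mup11 stood on opposite sides of 1 in different hepatocyte clusters of the same comparison, DKO over WT ApoE. Its ratio was 1.56 in the pericentral cluster 5, against 0.641 in cluster 0, 0.619 in cluster 2, 0.529 in cluster 6 and 0.643 in the periportal cluster 7. With 1 library per group the difference between clusters was not tested. In cluster 7 thinned cells held Mup11 less often than T cells of the same library. Those T cells also held it less often in DKO than in WT ApoE. Clusters 0, 2 and 6 were not set against T cells here.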

How the results depend on the processing

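The ratio of the summed members, DKO over WT ApoE, stayed below 1 under all 13 alternatives, from 0.537 to 0.815. None of these alternatives took out RNA from outside the cell. It was 0.625 with mitochondrial genes, Gm42418 and AY036118 out of the denominator, 0.537 as a mean of single-cell CPM, 0.539 in thinned cells, 0.815 in clusters 5, 7 and 8 alone, 0.663 without Mup3, and 0.541 with clusters weighted by their WT ApoE cells. In clusters 5, 7 and 8 alone Mup11 was at 1.23 and Mup20 at 1.04. Mup9 without cells of at least 3 Mup9 UMIs was at 2.41; this setting and the weighting were chosen after seeing the data. For WT ApoE over WT the sum was 0.989 with that denominator, 0.796 over all cells the authors call hepatocytes, 1.10 as a mean of single-cell CPM and 1.06 in thinned cells, and Mup3 was at 0.991 over all cells the authors call hepatocytes. With genes of at least 1 UMI counted, 13.2% were 1.5-fold higher and 18.6% lower in DKO, and 30.2% higher and 29.7% lower in WT ApoE over WT. The causes were not tested. No paired analysis was possible because each group has 1 library, and no replicate could be left out. Counts of Mup9 and Mup11 in WT, at 8 and 2 UMIs, limit what their ratios can show.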
